A study of Sus scrofa with 12 samples.

Results

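The cuts described here were assigned by PAREsnip to small RNAs that carry no miRNA name in the tables but a running number written as NA and digits. Members were all rows whose miRNA cell holds such names and no other. They came to 77 small RNA cells, a cell being a distinct entry of the miRNA column within a library, out of 553 cells in all 12 libraries. These 77 cells held 4460 of the 19855 listed rows and 1270 of the 2773 cut positions counted once per class and library. The numbers restart in each library, so members were matched between libraries by chromosome and cut position (listed start plus cleavage position), or by gene, and never by number. A further 140 rows whose cell joins NA to a miRNA name were counted with the named miRNAs.

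The libraries are degradome libraries (PARE, which sequences the 5′ ends of broken transcripts) from total RNA of the loin of 12 female pigs recorded at day 180 and slaughtered at 100 ± 2 kg. Hampshire, Pietrain and Polish Large White animals gave 4 libraries each, 2 titled low MM and 2 titled high MM. MM is an abbreviation that the labels do not expand, and muscle mass is the subject of the series title. For the 4 Pietrain libraries the tab names of the workbook exchange high and low. Groups follow the titles, which the shear force label (light with low MM, heavy with high MM) follows as well. No treatment, transgene or pooling is given, all animals were kept and fed alike per the labels, and the labels do not say which animals were related. Pig is the species on all 12 samples, although chickens are named in the design text of the series.

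Small RNAs loaded into an Argonaute protein can direct the slicing of a transcript to which they pair almost fully, and the downstream piece keeps an uncapped 5′ end that PARE captures. In animals, most miRNAs pair with their targets over a short seed and act by repression and decay without slicing, so a fragment end opposite a small RNA is a candidate site. Other RNAs, among them transfer RNA, small nucleolar RNA and repeat-derived RNA pieces, can also be present in a small RNA library. PAREsnip ranks a cut by category: 0 where its fragments are the single most abundant on the transcript, 1 where they share that rank, 2 and 3 where they lie above or below the transcript's average, and 4 where 1 fragment was read. Its alignment score adds up mismatches between small RNA and target, so that 0 is a full match. Neither the small RNAs nor the fragments are given as sequence in the files, so no sequence is printed.

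The unnamed small RNAs had low deposited abundances, as did most named ones. The input total implied by the normalized abundances, taken as per-million values, was 174 to 424 per library. Rarity in the input could therefore not be read from these values. The deposited small RNA abundance was 1 in 61 of the 77 cells (79.2%) and at most 6, and it was 1 in 345 of the 476 named cells (72.5%). A library had 1 to 13 unnamed cells. A cell could hold several numbers, up to 6, and 16 of the 77 held 2 or more. A single cut position was all that 41 cells had, and 59 had 5 or fewer. By contrast, 8 cells had 58 positions or more each and together held 1132 of the 1367 positions summed over cells. The 5 cells with the most rows were NA71/NA72 of Hampshire high MM replicate 2 with 536 rows at 260 positions, NA24 of Pietrain low MM replicate 2 with 498 rows at 194 positions, NA26 of Polish Large White high MM replicate 2 with 332 rows at 162 positions, NA57 of Hampshire high MM replicate 2 with 298 rows at 145 positions, and NA15 of Pietrain high MM replicate 1 with 274 rows at 106 positions. In Hampshire high MM replicate 2, 97 positions were listed with both NA57 and NA71/NA72.

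How much of a library the unnamed cells took varied widely. Among Hampshire libraries they held 60 and 129 cut positions in the low MM replicates 1 and 2 and 32 and 352 in the high MM replicates. In Pietrain they held 3 and 205 positions in low MM and 108 and 21 in high MM, and in Polish Large White 46 and 136 in low MM and 16 and 162 in high MM. The 2 replicates of a group lay far apart in all 6 groups, and the ranges of the groups overlapped. As a share of all cut positions, the unnamed cells took 2.68% in Pietrain low MM replicate 1 (95% Wilson interval 0.915 to 7.58%), a median of 41.2%, and 80.6% in high MM replicate 2 of Polish Large White (74.6 to 85.5%). As a share of rows the range was 2.21% to 47.7%. Intervals cover counting error alone, and rows that come from the same fragment are not independent.

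Unnamed positions came in large sets with equal values. The ratio of the fragment abundance to its weighted value was taken as the number of genome windows a fragment matched. This reading is inferred, since the weighting is not defined in the sources used here. At 1 position 49 windows were listed, so windows are not separate loci. Positions of a library with equal abundance and equal number of windows were counted as 1 fragment signature. The 1270 unnamed positions fell into 213 signatures, and the 1503 named positions into 689. In Hampshire high MM replicate 2, 301 of 352 unnamed positions had 1 signature, an abundance of 20 with 473 matching windows. In Polish Large White high MM replicate 2, 120 of 162 had an abundance of 20 with 607 matching windows. These libraries had 20.7 and 40.5 unnamed positions per signature, while the other 10 had 1.48 to 7.71. The named positions of the 12 libraries had 1.63 to 3.90 per signature. Counted as signatures, the unnamed share was 1.82% to 34.9% of a library with a median of 25.4%.

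The abundance of those fragments came in steps. Fragment abundance was a whole multiple of 20 in 2572 of the 2588 rows (99.4%) of the 8 largest unnamed cells and in 486 of the 1872 rows (26.0%) of the other 69. Among named rows it was a multiple of 20 in 98.7% of the 2576 rows of miR-4331-5p and in 6.09% of the 12819 others. The unit of this column is not stated and it is used here as a score, not as reads.

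Large cells of different pigs had some positions in common. Of 1165 distinct unnamed positions, 85 (7.30%) were listed in 2 or more libraries, 69 in 2, 12 in 3 and 4 in 4. For nuclear named positions the share was 190 of 1058 (18.0%). The 8 largest cells, from 7 libraries and 3 breeds, were linked through 68 shared positions out of 953. Without sequences, cells of different libraries cannot be called the same small RNA. The pair with most in common, NA24 of Pietrain low MM replicate 2 and NA25 of Polish Large White low MM replicate 2, shared 18 positions, 9.28% of the first cell's and 16.5% of the second's. By contrast, NA57 of Hampshire high MM replicate 2 and NA26 of Polish Large White high MM replicate 2 shared 1. Of the 85 positions, 9 stayed within a breed, 68 spanned 2 breeds and 8 all 3. Low MM libraries alone held 41 of them, high MM libraries alone 2, and both kinds 42. By the tab names, which exchange the Pietrain groups, the counts were 25, 18 and 42. Of the 41 by titles, 32 had rows of a low-ratio class alone in every library. That class has a ratio of normalized to weighted abundance under 0.15, and what sets the ratio is not stated. It occurs among unnamed rows in all 6 low MM libraries and in 1 of the 6 high MM libraries. MM group and ratio class cannot be told apart there.

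The 4 positions in 4 libraries lay in DES, PPP3CB, MTARC1 and PPIC. Gene roles are given as known from the human and mouse genes of the same symbol, and the build behind the coordinates is not stated in the sources used here. DES (ENSSSCG00000020785) encodes desmin, the intermediate filament that ties Z-discs together. Its cut at chromosome 15 position 121430566 had fragment abundances of 6 in Hampshire low MM replicate 2, 3 in Pietrain high MM replicate 2, 1 in Polish Large White high MM replicate 1 and 2 in Polish Large White low MM replicate 1. The alignment score was 4.0 in all 4 libraries and the category 3, 2, 4 and 2 in the same order. The matching windows, 60, 59, 53 and 51, were nearly alike, and 9, 6, 30 and 3 of them were listed at this position. The next DES cut, at 121430450, recurred in the first 3 of these libraries with the same small RNA cells.

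PPP3CB (ENSSSCG00000010301) encodes a catalytic subunit of calcineurin, the calcium-dependent phosphatase that acts on fibre type genes. Its cut at chromosome 14 position 76250005 had abundances of 20 in Pietrain high MM replicate 1, 60 in Pietrain low MM replicate 2, 20 in Polish Large White high MM replicate 2 and 60 in Polish Large White low MM replicate 2. Matching windows were 68, 104, 85 and 74, and the best alignment score was 3.0, 3.0, 4.0 and 3.0. MTARC1 (ENSSSCG00000010829), a molybdenum enzyme of the mitochondrial outer membrane, was cut at chromosome 10 position 10215095. Its abundances were 20 in Hampshire low MM replicate 2, 60 in Pietrain low MM replicate 2, 20 in Polish Large White high MM replicate 2 and 60 in Polish Large White low MM replicate 2, with 106, 104, 85 and 74 matching windows. PPP3CB and MTARC1 thus had fragments with the same abundance and the same number of windows wherever both were listed. PPIC (ENSSSCG00000031128), a cyclophilin, was cut at chromosome 2 position 126531967 with abundances of 40 in Hampshire low MM replicate 1 and 20 in Pietrain high MM replicate 1, Pietrain low MM replicate 2 and Polish Large White low MM replicate 2. Its 47 to 58 matching windows set it apart from the first pair.

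Positions in 3 libraries repeated that picture. OPA1, the inner membrane fusion GTPase of mitochondria, DPH3, which takes part in diphthamide synthesis, TAF9B, a transcription initiation factor subunit, and a position listed under LRRC17 in 2 libraries and under PTPN12 in another were listed with 68 to 106 matching windows. ABRA, an actin-binding protein of striated muscle, was listed at chromosome 4 position 30720385 in both Hampshire low MM replicates and Pietrain low MM replicate 2, with abundances of 20, 40 and 40 and matching windows of 42, 80 and 60. MYO5A, a class V myosin motor, shared exactly those abundances and windows in those 3 libraries at chromosome 1 position 119155501. BDH1, an enzyme of ketone body use, had 26, 14 and 13 matching windows in Hampshire low MM replicate 2, Pietrain low MM replicate 2 and Polish Large White low MM replicate 2. RBM39, a splicing factor, differed from these. Of its 4 positions on chromosome 17, those at 39038187 and 39038205 each had abundance 1, category 4 and 10 to 17 matching windows in Hampshire low MM replicate 2 and both Pietrain low MM replicates, and that at 39035379 was listed in the Pietrain pair, also with abundance 1 and category 4.

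Few cuts met a rule for a single locus. A cut was called single-locus where at least 50% of its fragment's matching windows were listed at that position, a limit chosen after the data had been seen. The share counts listed windows, so windows missing from a library's list lower it at the same position. The DES cut at 121430566 met the limit in Polish Large White high MM replicate 1 with 30 of 53 windows. In Polish Large White low MM replicate 1 it did not, with 3 of 51. Counts of such cuts therefore depend on which windows each library listed. The nearest value outside was 47.1%, and 12 library positions lay at the lowest share inside, 50%. Among these, MYLK4, TTC37 and TEX14 had 2 positions each, with equal fragment values and 50% of the windows at each. Those cuts meet the limit but are not tied to 1 locus. The limit left 66 of 1270 unnamed library positions (5.20%) at 59 distinct positions, and 244 of 1437 named nuclear ones (17.0%). Of the 66, 37 (56.1%) had category 0 or 1, against 63 of the other 1204 (5.23%). Both numbers are given without a test, and the other 1204 include the large sets of positions with equal values described above. A fragment with 1 matching window, as at 21 of the 66, meets the limit by the rule itself. The gene lay on strand −1 alone at 36 of the 66, on strand 1 alone at 16, on both at 7 and on neither at 7. Nuclear windows are listed on both strands, so the sense of a cut relative to its gene could not be read.

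Several single-locus cuts with many listed windows lay in transcripts abundant in muscle. The third DES position, at chromosome 15 position 121435328, was listed in Hampshire high MM replicate 2 with abundance 5 and 33 of 44 matching windows and in Hampshire low MM replicate 2 with abundance 27 and 29 of 35. Both had category 2 and score 4.5. The glycolytic enzyme gene TPI1, which overlaps SPSB2, was cut at chromosome 5 position 63841551 with abundance 1 and category 4 in Hampshire low MM replicate 2 (49 of 61 windows) and Pietrain low MM replicate 2 (29 of 54). ACTN2, the α-actinin of the Z-disc, was cut at chromosome 14 position 54671029 in Hampshire high MM replicate 1 with abundance 1 and 19 of 24 windows. In Hampshire low MM replicate 1 the same position had 5 of 28 windows and did not meet the limit. PKM, pyruvate kinase, was cut at chromosome 7 position 61022785 in Pietrain low MM replicate 2 with abundance 3, category 3 and 44 of 54 windows. Many windows were also listed for genes of other kinds, among them EFCAB7 (49 of 64), PRDX2/ZNF14 (24 of 28), ADSS1 (23 of 27) and ACTB (16 of 19), each in 1 library.

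Category 0 or 1 was reached at other single-locus cuts. EEF2, the translocation factor of translation, had a category 0 cut at chromosome 2 position 74749876 in Polish Large White low MM replicate 1, with abundance 11 and 20 of 28 windows. MAP1A, a microtubule-associated protein, was cut at chromosome 1 position 127916726 with category 0 and 2 of 2 windows in Hampshire high MM replicate 2, and with category 1 and 1 of 1 window in Pietrain low MM replicate 2. Its abundance was 2 in both. MMP11, a matrix metalloproteinase, was cut at chromosome 14 position 49914488 with category 0 in Pietrain low MM replicate 2 and Polish Large White low MM replicate 2, where the fragment matched a single window and had abundances of 20 and 40. IARS1, the cytosolic isoleucyl-tRNA synthetase, was cut at chromosome 3 position 41946075 in Hampshire low MM replicate 1 (category 1, 7 of 8 windows) and replicate 2 (category 0, 5 of 6), both with abundance 20. With categories of 4 and 2, ISCU, a scaffold of iron-sulphur cluster assembly, was cut at chromosome 14 position 42216362 in Pietrain high MM replicate 2 with abundance 1 and in Polish Large White low MM replicate 1 with abundance 2. No position of these 5 genes was listed in more than 2 libraries. At a single library each, single-locus cuts were listed in the genes of the mitochondrial calcium uniporter MCU, the outer membrane channel VDAC3, the peroxidase GPX1, the cytokine MIF, β-actin (ACTB), branched-chain aminotransferase BCAT2 and the muscle kinase MYLK4. These genes were picked out after their values had been seen. VDAC3 in Polish Large White low MM replicate 1 and BCAT2 in Hampshire low MM replicate 1 had 1 of 2 windows. MYLK4 in Polish Large White low MM replicate 1 had 5 of 10 at each of 2 positions.

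Full matches occurred at a single locus. Alignment score 0 was reached by 3 of the 1270 library positions, all on chromosome 12 within TEX14, a gene of germ cell bridges, where the files also list RF00012, the Rfam family of the U3 small nucleolar RNA, and RF01848. In Hampshire high MM replicate 2, the cell NA1/NA2/NA3 cut 34888330 and 34899544 with category 0 and abundance 6, each position holding 4 of the fragment's 8 windows. In Polish Large White low MM replicate 2, NA17/NA18 cut 34885741 with category 2, abundance 2 and 1 matching window. The Hampshire fragment matched both of its positions alike, so the copy it came from is uncertain. The next best score, 2.0, was reached by DHRS7B in Hampshire low MM replicate 2, HARS2 in Polish Large White high MM replicate 2 and RADIL in Polish Large White low MM replicate 2, with 80, 85 and 74 matching windows.

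Of the 10 category 0 cuts with the best scores, ties broken by library name, 2 were the Hampshire TEX14 positions. NDUFA9, a subunit of respiratory complex I, followed with score 2.5 at chromosome 5 position 65762795 in Polish Large White low MM replicate 2 (abundance 20, 3 matching windows). Score 3.0 was reached by TSPAN16 and RNF130 in Hampshire high MM replicate 1, by PPIG and a position on chromosome 4 without a gene in Hampshire low MM replicate 2, by EMC7 in Pietrain high MM replicate 1 and by ENSSSCG00000040412 in Pietrain low MM replicate 2. The last place was a tie of 9 category 0 positions at score 3.5, of which the first by library name was ADGRF5 in Hampshire high MM replicate 2 and among which were MMP11 and IARS1, described above, and CHN2 in Polish Large White low MM replicate 2. The 7 cuts of scores 2.5 and 3.0 had abundance 20 and 1 to 9 matching windows, and each was listed in 1 library.

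Across all 1270 library positions, 59 had category 0 (4.65%), 41 category 1 (3.23%), 355 category 2 (28.0%), 779 category 3 (61.3%) and 36 category 4 (2.83%). The named positions had 10.6, 4.92, 40.3, 30.9 and 13.2% in the same categories. Libraries were then compared as pairs of classes by an exact sign-flip permutation over the 12 libraries (two-sided, 6 measures adjusted together by Benjamini-Hochberg). The share of category 0 or 1 was 15.6% ± 17.0 for unnamed and 15.3% ± 4.71 for named positions (SD, n = 12), with a difference of 0.257 percentage points (exact permutation p = 0.969, adjusted 0.969). The unnamed share ranged from 0% to 56.3%, and the extreme libraries held few positions: 0 of 3 in Pietrain low MM replicate 1 and 9 of 16 in Polish Large White high MM replicate 1. Hampshire high MM replicate 2 and Pietrain low MM replicate 2 together held 557 of the 1270 positions pooled above.

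The mean alignment score of a library was 3.99 ± 0.313 for unnamed and 3.82 ± 0.257 for named positions (SD, n = 12). It was higher, meaning weaker pairing, for unnamed positions in 10 of 12 libraries, by 0.16 (exact permutation p = 0.0132, adjusted 0.0396). The direction turned without the named rows of miR-4331-5p (−0.14, exact permutation p = 0.0273) and when each signature was counted once (−0.04, exact permutation p = 0.657). Scores of 4.0 and 4.5 were held by 509 and 358 of the 1270 unnamed library positions, and scores of 2.5 or less by 21.

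Matching windows and abundance did not separate the classes at the threshold. The geometric mean number of matching windows was 56.3 for unnamed and 93.1 for named positions, a log2 difference of −0.73 (exact permutation p = 0.127, adjusted 0.190, lower in 7 of 12 libraries). A fragment with 1 matching window stood behind 2.11% ± 1.94 of unnamed and 2.90% ± 1.66 of named positions (SD, n = 12; exact permutation p = 0.329, adjusted 0.394). Geometric mean abundance was 14.4 and 22.3, a log2 difference of −0.63 (exact permutation p = 0.0732, adjusted 0.146). The differences in windows and abundance changed sign without miR-4331-5p, to 0.70 and 1.43. Over all 1270 unnamed positions, 21 had 1 matching window, 83 had 2 to 9, 524 had 10 to 99, 639 had at least 100 but under 1000, and 3 had 1000 or more. Of named positions, 310 of 1500 had 1000 or more.

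No unnamed small RNA was listed with a cut in a mitochondrial transcript. The count was 0 of 1270 library positions, which allows a share of up to 0.236%, or 3 positions, if positions are independent. They are not, since the 1270 fell into 213 signatures, so this limit and those per library are too low. Named miRNAs had 63 such positions and 4821 rows (31.3% of theirs), and a share of 1.47% to 7.78% of positions in every library. The difference was −4.78 percentage points (named 4.78% ± 2.03, SD, n = 12; exact permutation p = 0.000488, the smallest that 12 libraries can give; adjusted 0.00293; lower in 12 of 12). With positions taken as independent, the share that a count of 0 allows lay below the named share in 7 libraries, at 0.852% to 5%. Among these 7, the 162 positions of Polish Large White high MM replicate 2 fell into 4 signatures. In the other 5, with 3 to 46 unnamed positions, it lay above it, so that a share like the named one was not detectable as different at this depth. Those 5 were Hampshire high MM replicate 1, Pietrain low MM replicate 1 and high MM replicate 2, and Polish Large White low MM replicate 1 and high MM replicate 1.

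Unnamed and named cuts were next compared by position. The 140 rows whose cell joins NA to a miRNA name count as named by the rule, so that coincidence within such a cell cannot appear here. In the same library, 0 of 1270 unnamed positions lay within 10 bases of a named cut, 4 (0.315%) within 50 bases and 8 (0.630%) within 1000. Against named cuts of any library, 0 coincided or lay 1 base apart, 6 lay within 10 bases and 44 (3.46%) within 1000. Most near neighbours had 1 of a few spacings. Within 100 bases there were 20 pairs of an unnamed and a named position, 12 of them with miR-4331-5p, 5 with miR-432-5p and 3 with miR-181b. The miR-4331-5p cut lay 38 bases further along the chromosome in 10 of its 12 pairs and 37 in 1, in or near GJB7/SMIM8, COQ3, TMEM30A, SMU1, LRRFIP2, LRP5, UBXN2B and HEPACAM2 and at 3 positions with no gene. At NYAP2, the remaining pair, it lay 8 bases before the unnamed cut. The miR-432-5p cut lay 5 bases before the unnamed one in all 5 pairs, MTMR6, FOXP2, RAB23 and 2 positions with no gene among them. The miR-181b cut lay 54 or 55 bases before it in all 3, in CCDC93, CHPF2/SMARCD3 and IARS1.

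Both classes were listed in the same library at 4 of these 20 pairs, all with miR-4331-5p. At HEPACAM2 in Hampshire low MM replicate 1 the unnamed fragment had abundance 40 and 47 matching windows, and the named one 340 and 1688. At LRP5, a Wnt co-receptor, in Polish Large White low MM replicate 2 the values were 60 and 74 against 960 and 1197. At UBXN2B in Polish Large White high MM replicate 2 they were 20 and 607 against 60 and 1850. The named fragment was the more abundant and the more widely matched in each. Further apart, PKM had its unnamed cut 874 bases from a miR-615 cut in Pietrain low MM replicate 2, with abundances of 3 and 2. BDH1 had its cut 524 bases from one of miR-4331-5p in Polish Large White low MM replicate 2, and SLA-2/SLA-5, class I histocompatibility genes of a multigene family whose members could share fragments, had it 254 bases from a cell that joins NA to miR-1983 in Hampshire low MM replicate 2.

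The genes listed at unnamed positions numbered 770 of 1416 target genes in the series (54.4%), and 41 of them had no symbol. Named miRNAs had 766. Both classes listed 120 genes, 15.6% of the unnamed and 15.7% of the named targets. A gene was listed with both classes in the same library in 55 of 907 gene and library pairs, a mean of 5.12% ± 3.46 per library (SD, n = 12). Most unnamed targets, 662 (86.0%), were listed in 1 library, 87 in 2, 15 in 3, 4 in 4 and 2 in 5. The 2 in 5 libraries were DES and MYO5A. The 4 in 4 were PPP3CB, MTARC1, PPIC and MYBPC2, the fast myosin-binding protein C. Others in 3 were CNTNAP2, a neurexin-like adhesion protein, FBXL20 and RNF34, both ubiquitin ligase components, and SELENOW, a selenoprotein abundant in muscle.

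Contractile genes were among the targets of both classes. Of 15 fast fibre genes, unnamed small RNAs listed 6 and named miRNAs 7. MYBPC2 was listed in 3 Pietrain libraries and 1 other, MYL1, an alkali myosin light chain that overlaps 2 further gene entries, in 3, ATP2A1, the fast calcium pump, and MYLK2, the skeletal myosin light chain kinase, in 2 each, and MYH2 and TNNI2 in 1. Of 12 slow fibre genes, unnamed small RNAs listed MYBPC1 alone and named miRNAs listed 3. Of 30 sarcomere and Z-disc genes, they listed 7, which were DES, ACTN2, NEB, TMOD4, MYOM2, MYOT and MYOZ2, and named miRNAs 9. Of 22 calcium handling genes they listed PPP3CB and SRL, and named miRNAs 3. Unnamed targets made up 75.0% of the listed fast genes, 33.3% of the slow and 58.3% of the sarcomere genes, beside 54.4% of all targets.

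Of 28 genes of glycolysis and glycogen, 7 were unnamed targets (GPI, TPI1, ALDOA, CKM, ENO3, GYS1 and PKM) and 11 were named ones. GPI, the isomerase at the head of glycolysis, was listed at 2 positions, 1 in each of 2 Hampshire libraries, with 25 matching windows at both. None of the 13 mitochondrially encoded genes was an unnamed target, as above, and 6 were named targets. Of 43 nuclear genes of oxidative phosphorylation, 4 were unnamed targets (COX7A1, NDUFA9, COX5A and UQCRB) and 2 named. Unnamed targets were 4 of the 5 nuclear genes and 7 of the 14 glycolytic genes listed with either class, beside 54.4% of all targets. Of 20 genes of mitochondrial import and dynamics, OPA1 and VDAC3 were unnamed targets, and 4 were named. These counts are small, and no list was tested.

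Of 26 translation and ribosome genes, unnamed small RNAs listed EEF2, EEF1A2 and EIF4G1, and named miRNAs 6. Of 23 protein breakdown genes they listed FBXO40, a muscle F-box protein, and PSMD1, a proteasome subunit, and named miRNAs 4. Of 33 genes of myogenic and growth signalling they listed HDAC5, FSTL1, MTOR and RPS6KB1, and named miRNAs also 4. MTOR and RPS6KB1, the kinase and its substrate kinase in growth control, were each listed in 1 low MM library by titles. Both had category 3 and abundance 20. By tab names the library of MTOR, a Pietrain one, would be high MM. Of 27 matrix genes they listed LAMA2, and named miRNAs 5, and of 20 stress genes BAG3 and FKBP5, and named miRNAs 4. None of 15 small RNA machinery genes was a target of either class. The labelled tissue, loin, had transcripts of striated muscle among its targets, as above. Of the skeletal muscle fibre markers, CKM, MYH2, DES, NEB and ATP2A1 were among the unnamed targets of these lists. Others, such as MYH1, MYH7, TNNT1 and TNNT3, were not. Among markers of other cells, LPL of adipocytes, ALAS2 of erythroid cells, and B2M and CD14 of immune cells were unnamed targets, each in 1 library, and no endothelial, fibroblast, Schwann cell or smooth muscle marker was.

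The study set high against low MM. Unnamed cells held 26.4% ± 16.8 of rows in high and 17.3% ± 11.1 in low MM libraries (SD, n = 6), a difference of 9.01 percentage points (exact permutation within breeds, two-sided p = 0.324, adjusted 0.796 over 4 measures). They held 43.9% ± 31.0 and 34.7% ± 22.0 of cut positions (difference 9.15, exact permutation p = 0.602, adjusted 0.796). The number of unnamed positions was 115 ± 130 and 96.5 ± 73.5 (difference 18.7, exact permutation p = 0.796, adjusted 0.796). The share of category 0 or 1 among them was 20.3% ± 22.3 and 10.8% ± 8.99 (difference 9.57, exact permutation p = 0.417, adjusted 0.796). The MM groups overlapped in each measure. By tab names the 4 differences were 6.98, 5.81, 45.0 and 3.80, with exact permutation p of 0.426, 0.741, 0.556 and 0.778. The size of all 4 differences by titles depended on single libraries, and the sign did so for the number of positions alone. Leaving out 1 library gave 4.74 to 12.2 for rows, 1.81 to 15.6 for positions as a share and 2.38 to 13.5 for category 0 or 1. Counted as signatures, the difference in share was 0.170 (exact permutation p = 0.954). The difference in the number of positions was −28.7 without Hampshire high MM replicate 2 and −0.03 without Pietrain low MM replicate 1.

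Target by target, 108 genes listed in 2 to 10 libraries were tested for presence, and 0 were called at an adjusted p under 0.05 (0.00% of genes tested), nor did any pass an unadjusted 0.05. The design could hardly have given another count, since 102 of the 108 genes were in 2 or 3 libraries, where the test cannot go below 0.167. Only 2 genes, DES and MYO5A in 5 libraries each, could have passed an unadjusted 0.05, so the count of 0 says nothing about the others. The smallest exact permutation p was 0.167. MYO5A was listed in 1 high and 4 low MM libraries (exact permutation p = 0.278). RBM39, LRRC17 and ABRA were listed in 0 high and 3 low MM libraries (exact permutation p = 0.167 each) and BDH1 likewise (p = 0.25, exact permutation). By tab names RBM39 would be 2 high and 1 low, ABRA and BDH1 1 high and 2 low, and LRRC17 unchanged at 0 and 3. BAZ2B, a bromodomain protein, was listed in 2 high and 0 low MM libraries, with 473 and 607 matching windows, the counts of the leading signatures of those libraries.

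Between breeds, unnamed cells held 47.5% ± 22.9 of Hampshire, 29.1% ± 24.4 of Pietrain and 41.3% ± 33.8 of Polish Large White cut positions (SD, n = 4 each; exact permutation over all partitions, p = 0.634, adjusted 0.738 over 2 measures). The number of positions was 143 ± 145, 84.3 ± 92.6 and 90.0 ± 70.0 (exact permutation p = 0.738, adjusted 0.738). Of the 108 genes, 0 were called between breeds (0.00%), and 0 passed an unadjusted 0.05. Only the 6 genes in 4 or 5 libraries could have passed it, because 2 libraries allow no exact permutation p below 0.273 and 3 none below 0.0545. MYBPC2 had the smallest value (exact permutation p = 0.2). That value rests on rows with the gene listed. A position between its cuts, chromosome 6 position 55326167, had no gene listed and also occurred in Polish Large White low MM replicate 1. GPI, ACTN2, CHPT1, a choline phosphotransferase, and GOLGA5, a golgin, were each listed in 2 Hampshire libraries and none of another breed. ATP2A1, ITGB6 and PAK2 were listed in 2 Pietrain and TMEM182, a muscle membrane protein, in 2 Polish Large White libraries alone (exact permutation p = 0.273 each).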

How the data were processed

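PARE libraries came from loin RNA with integrity numbers over 7, per the labels' protocols. The submitters' processing notes name CASAVA 1.8.2 and FastQC, and the file headers are those of PAREsnip. Aligner, build, small RNA input and row filter were not given in the sources used here. As deposited, category, alignment score, fragment abundance and small RNA abundance were used as score values. The deposited p-value has 2 decimals and reaches 0.05 at most. The weighted and the normalized abundance are signal values as deposited by the authors, whose normalization factor has no stated scale. Read depth is unknown, so an unlisted cut is not a measured 0.

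Python 3.11.15 with pandas 2.3.3, numpy 2.4.6 and scipy 1.17.1 was used. A cut position was the sum of start and cleavage position, counted once per class and library with its best category and score, its lowest number of matching windows and its highest abundance. Genes of either strand were targets, and symbols came from the files or the reference table. MM was permuted within breeds (216 relabellings), breeds over all partitions into groups of 4 and classes by 4096 sign flips, each two-sided with Benjamini-Hochberg adjustment. The scripts were tested on simulated data.

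The members, gene lists and tests were chosen with earlier results of these data known. Named genes are the 15 targets of most libraries, the 10 of largest MM surplus, up to 5 per breed and all listed members of the gene lists. Named positions are the 10 in the most libraries and the 10 of category 0 with the best scores, besides those said to be picked later. Alternatives were the tab names, no Pietrain libraries, each library left out, replicate blocks, a deposited p-value of at most 0.02, stricter or looser categories, every row counted, nuclear positions, no miR-4331-5p, first listed gene and matches within 1 base. Rows outside the low-ratio class alone and fragment signatures were alternatives chosen after seeing the data.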

Additional observations from a re-analysis of the deposited data

Results flagged for a closer look

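A library was marked where its gap to the nearest of the other 3 of its breed filled most of the breed's range (Dixon's 95% limit for 4 values). Of 40 groups, 7 were marked. Chance marks about 1 in 20 of independent, normally distributed groups. The 40 groups are several measures of the same 12 libraries, so no excess can be read from the count. Hampshire high MM replicate 2 had a median of 473 matching windows per unnamed position (25 to 99 in the others) and 20.7 positions per fragment signature (3.75 to 4.45). Polish Large White high MM replicate 2 had 607 windows (27.5 to 58) and 40.5 positions per signature (1.48 to 4.69). In Pietrain low MM replicate 1 the median was 15 windows (59 to 68), over 3 positions. Polish Large White low MM replicate 2 had a mean alignment score of 3.42 (4.21 to 4.34) and a median abundance of 30 (20 in each of the others).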

How the results depend on the processing

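Of 274 values under alternatives, 252 kept their direction and their side of the threshold. Part of these could not have changed. The looser rule of at least 1 NA number in a cell selected the same rows. Replicate blocks cannot change the direction of a difference, and a variance between breeds has no sign. As above, the design could hardly have given a gene count other than 0. The tally is therefore no measure of robustness. Counting fragment signatures gave −13.8 for the number of unnamed positions, high minus low MM (exact permutation p = 0.0926), −0.0421 for the alignment score, −0.466 for log2 matching windows (exact permutation p = 0.0337) and 0.371 for log2 abundance, unnamed minus named. Without miR-4331-5p these 3 class differences were −0.136, 0.697 and 1.43, and that in category 0 or 1 was −5.46. The category difference was −0.494 for nuclear positions and −4.13 for categories 0 to 2. Log2 abundance was −0.713 for nuclear positions (exact permutation p = 0.0283) and 0.281 with every row counted, which gave 0.364 for the share with 1 matching window. The cause of these shifts was not tested.

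Leaving out 1 library moved the number of positions from −28.7 to 40.4, category 0 or 1 between classes from −4.22 to 1.85, the share with 1 window from −1.43 to −0.441 (exact permutation p = 0.00391 without Hampshire high MM replicate 1), log2 windows from −0.965 to −0.490 (exact permutation p = 0.0391 without Hampshire high MM replicate 2) and log2 abundance from −0.756 to −0.244 (exact permutation p = 0.0176 without Polish Large White high MM replicate 2). The alignment score stayed at 0.145 to 0.198, the mitochondrial share at −5.08 to −4.51 and the called genes at 0. Rows outside the low-ratio class alone gave 78.6 for the number of positions (exact permutation p = 0.352).

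Replicate numbers tie samples to no litter, batch or day in the labels, and a breed has 2 pairs. With the replicate block the MM differences were 9.01, 9.15, 18.7 and 9.57 (exact permutation p = 0.156, 0.5, 0.75 and 0.188), and 0 genes were called. Depth is not given, so absence from a table sets no limit on a cut.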

Other observations

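Cells linked through shared positions formed 11 groups. Apart from the group of 8 large cells, NA26 of Hampshire low MM replicate 2, NA7 of Pietrain low MM replicate 1, NA15 of Pietrain low MM replicate 2 and NA20 of Polish Large White low MM replicate 1 shared 4 of 7 positions, among them those of RBM39. The DES cuts near 121430566 tied NA30 of Hampshire low MM replicate 2 to NA20 of Pietrain high MM replicate 2, NA22/NA57 of Polish Large White high MM replicate 1 and NA24 of Polish Large White low MM replicate 1, over 5 positions of which 3 were shared. A position on chromosome 6, 55326167, with no listed gene, was the sole cut of 3 cells, with abundances of 1 in Pietrain low MM replicate 2, 2 in Polish Large White low MM replicate 1 and 6 in Polish Large White low MM replicate 2, where its category was 0. It lies between 55306656 and 55327012, both listed under MYBPC2. At 55327012 the gene was listed in Pietrain high MM replicate 2 but not in Polish Large White low MM replicate 2.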
